A study of Mus musculus with 30 samples.

Results

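Mice that lack D6 were examined 2 days after the last application of the phorbol ester TPA, with the back skin of D6-deficient day 0 mice as the control. The comparison takes 3 day 2 arrays and 3 day 0 arrays, 6 of the 30 arrays of the study, and covers 17772 genes, each read by 1 probe set. WT and D6-deficient mice were sampled at days 1, 2, 4 and 6 after TPA and as day 0 controls, which makes 10 groups of 3 arrays. All mice were 129–C57BL/6 females aged 8 to 12 weeks with shaved back skin. The treated groups received 3 applications of 50 µM TPA, 24 h apart. The day 0 mice received acetone according to the sample descriptions and the methods, although their titles read untreated. The D6 deficiency is carried in every cell of the animal and not in 1 cell type, and RNA came from whole skin, so keratinocytes, dermis, fat, the muscle layer and infiltrating leukocytes share each array. In such bulk samples fewer cells of a type and less RNA per cell cannot be told apart. Each array stands for a biological replicate, 3 mice a group.

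D6, now named ACKR2, is an atypical chemokine receptor that does not signal for migration. It takes up inflammatory CC chemokines and delivers them for breakdown, and it is known from lymphatic endothelium in the skin. TPA activates protein kinase C, and repeated application to mouse skin brings on epidermal thickening, chemokine production and an influx of leukocytes. Type I interferon acts through a receptor that activates a transcription factor complex with STAT2 and IRF9, and this complex binds the interferon-stimulated response element in the promoters of genes such as Ifit1 and Rsad2. NF-kappaB binds a different element in the promoters of many chemokines.

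Promoters of 6 called genes that hold a match to one of these elements are shown here, to print the letters that the counts below refer to. For the response element they are the 4 called genes of the interferon list with a match that rose most. For kappaB they are the only called genes with a match in the lists of neutrophil-attracting and inflammatory CC chemokines. Letters of kappaB were sought in these lists alone, where 2 of 3 and 2 of 6 called genes had a promoter. The Cxcl10 promoter, on the interferon list, also holds these letters, which are not marked. Ifit2, Oasl1 and Irf7 rose more than several of the first 4 and hold no match. The sequences are the 250 bases before the transcription start from RefSeq (GRCm38.p6), written 5′ to 3′ on the strand of the gene. In the first 4 the capitals mark matches to the core of the interferon-stimulated response element, GAAANNGAA on either strand, and in the last pair they mark matches to a kappaB element, GGGANNTTC on either strand. Neighbouring matches overlap in some of them and then form a single run of capitals.
Ifit1: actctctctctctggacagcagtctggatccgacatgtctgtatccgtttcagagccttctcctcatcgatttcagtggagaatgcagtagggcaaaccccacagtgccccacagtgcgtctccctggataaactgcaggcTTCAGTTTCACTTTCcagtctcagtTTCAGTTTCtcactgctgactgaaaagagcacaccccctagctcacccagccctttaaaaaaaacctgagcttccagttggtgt
Ifit3: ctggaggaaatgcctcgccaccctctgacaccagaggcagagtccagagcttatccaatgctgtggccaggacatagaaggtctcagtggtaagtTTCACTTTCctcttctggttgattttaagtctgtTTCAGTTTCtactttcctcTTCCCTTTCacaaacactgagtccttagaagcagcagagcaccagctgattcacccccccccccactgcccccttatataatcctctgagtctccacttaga
Rsad2: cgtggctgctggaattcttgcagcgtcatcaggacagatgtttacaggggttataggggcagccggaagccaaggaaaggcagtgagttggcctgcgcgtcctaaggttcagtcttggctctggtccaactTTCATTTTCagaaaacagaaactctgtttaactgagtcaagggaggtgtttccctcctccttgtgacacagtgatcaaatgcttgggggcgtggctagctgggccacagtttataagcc
Cxcl10: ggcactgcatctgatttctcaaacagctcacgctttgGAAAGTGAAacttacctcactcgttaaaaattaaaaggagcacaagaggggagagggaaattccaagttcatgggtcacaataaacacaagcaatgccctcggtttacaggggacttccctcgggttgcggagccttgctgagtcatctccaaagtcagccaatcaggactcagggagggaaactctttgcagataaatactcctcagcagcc
Cxcl2: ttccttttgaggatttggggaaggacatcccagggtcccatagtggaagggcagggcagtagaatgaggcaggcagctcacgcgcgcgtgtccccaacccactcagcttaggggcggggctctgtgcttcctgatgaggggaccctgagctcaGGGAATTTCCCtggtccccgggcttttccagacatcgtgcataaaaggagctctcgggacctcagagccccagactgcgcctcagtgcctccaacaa
Cxcl3: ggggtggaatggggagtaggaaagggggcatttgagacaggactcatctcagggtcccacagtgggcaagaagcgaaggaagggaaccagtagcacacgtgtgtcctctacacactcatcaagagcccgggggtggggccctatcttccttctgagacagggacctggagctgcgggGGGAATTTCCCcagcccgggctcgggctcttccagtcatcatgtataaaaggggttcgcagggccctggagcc
Ifit1 lies at chr19:34640639-34640888 on the plus strand, with 3 matches between 109 and 84 bases before the start. Ifit3 lies at chr19:34583279-34583528 on the plus strand, with 3 matches between 155 and 102 bases before the start. Rsad2 lies at chr12:26456453-26456702 on the minus strand with 1 match, and Cxcl10 at chr5:92348890-92349139 on the minus strand with 1 match. Cxcl2 at chr5:90903649-90903898 and Cxcl3 at chr5:90785851-90786100, both on the plus strand, each hold a pair of overlapping matches, 1 on either strand, that form the same run of capitals. Of the 38 interferon-induced genes tested, 26 had a promoter in the table and 14 of them (53.8%) held the response element core, against 8.18% of all 27025 genes with a promoter of this length (7.13% of all 32851 promoters). The core was found in 9 of the 16 called genes and in 5 of the 10 genes not called. The kappaB letters were found in 3 of 6 neutrophil-attracting chemokines (50%) and 1 of 9 inflammatory CC chemokines (11.1%), against 3.7% of all genes (3.23% of all promoters). A match is a run of letters and not a measured site.

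Values are log2 of the deposited intensity, and a change is the day 2 mean minus the day 0 mean on that scale. The array medians lay between 5.70 and 5.80. Over all tested probe sets the day 0 arrays correlated with each other at 0.989 to 0.993 and the day 2 arrays at 0.991 to 0.993, against 0.947 to 0.955 between the groups, and the median SD of a probe set was 0.14 within both groups. The hybridization controls, spiked into every sample, split the 30 arrays into sets of 17 and 13, both of which hold WT and D6-deficient arrays of several days. Each of the groups compared here had 1 array in the first set and 2 in the second. The D6 gene, listed as Ccbp2, read 3.30 to 3.86 in the D6-deficient arrays and 4.15 to 5.76 in the WT arrays with 1 of its 3 probe sets, without overlap (difference −1.41, adjusted p = 1.29e-08, limma with Benjamini-Hochberg adjustment). A further one differed by −0.69 (adjusted p = 5.2e-05). Its brightest probe set did not separate the genotypes (difference −0.07, adjusted p = 0.795), and there D6-deficient skin read 7.99, 8.05 and 8.09 at day 0 and 7.35, 7.20 and 6.85 at day 2, while the others changed by 0.15 and 0.04. The labelled tissue was borne out by its markers, since Krt14 read 13.26 to 13.55 and Col1a2 13.84 to 14.33 in the day 0 arrays.

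A probe set was called when its adjusted p was under 0.05 and its change exceeded 3-fold (1.58 on the log2 scale). In D6-deficient skin 1177 of 36029 probe sets (3.27%) were called between day 0 and day 2, 613 higher (1.7%) and 564 lower (1.57%). By gene, 760 of 17772 (4.28%) were called, 391 (2.2%) higher and 369 (2.08%) lower. Without the fold threshold, 3304 genes (18.6%) were higher and 3655 (20.6%) lower. Of the 760 genes called, 4 had day 2 arrays that overlapped the day 0 arrays. In WT skin at the same day 467 genes (2.63%) were called, 314 (1.77%) higher and 153 (0.861%) lower, and the WT probe sets called lower made up 0.699%. The median change over all genes was 0.01 in D6-deficient skin.

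**Figure D1:**
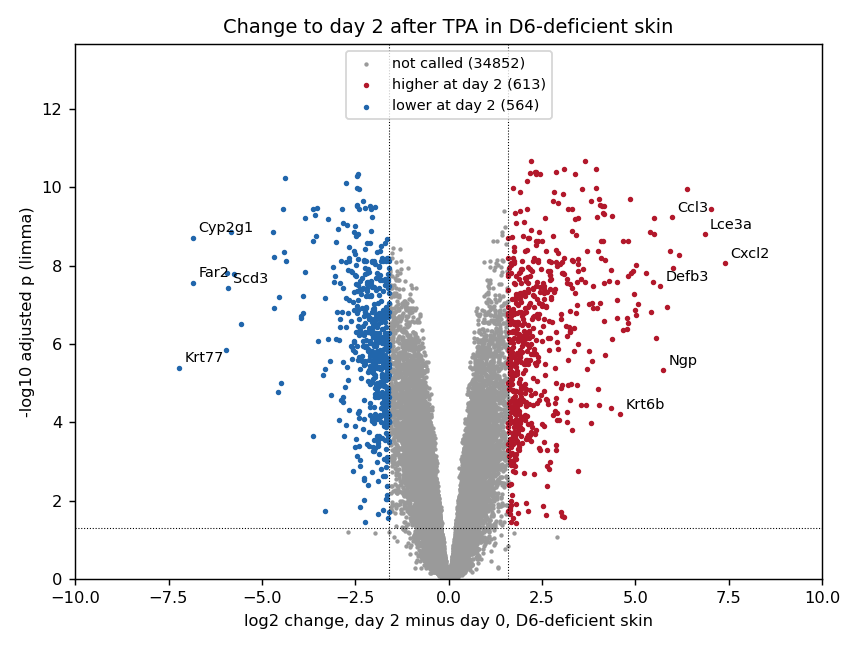
Each point is a probe set, with its log2 change from day 0 to day 2 in D6-deficient skin on the horizontal axis and −log10 of the limma adjusted p on the vertical axis. The dotted lines are the thresholds, the 613 called higher are red and the 564 called lower are blue, with Cxcl2 farthest to the right and Krt77 farthest to the left.

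The neutrophil chemokine Cxcl2 had the largest increase of all called genes. It read 4.38, 4.18 and 5.21 in the day 0 arrays and 12.03, 12.32 and 11.61 in the day 2 arrays. Every day 2 array lay over 6 log2 units above every day 0 array, a 169-fold change (7.40 ± 0.66 SE on the log2 scale, adjusted p = 8.8e-09). The Riken gene 2610528A11Rik followed at 131-fold (7.03 ± 0.50), with 4.14, 3.98 and 6.17 at day 0 and 11.60, 11.79 and 11.99 at day 2. Lce3a, a late cornified envelope gene of the barrier, went from 5.77, 5.14 and 6.86 to 13.02, 12.47 and 12.82 (115-fold). Next in size was Spink12, a serine protease inhibitor of the Kazal type, at 82.8-fold. It read 3.58 to 4.16 at day 0 and 9.48 to 10.95 at day 2. Hpx, which encodes the haem-binding plasma protein hemopexin, read 4.51, 5.02 and 4.49 at day 0 and 11.29, 9.97 and 10.33 at day 2, a 57.8-fold change. The 15 largest increases also held Cxcl3, Sprr1b, Ccl3, Ngp, Defb3, Sprr2i, Clec4e, Stfa2l1, Lce3f and Sprr2f, which are described with their groups.

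The largest decrease belonged to Krt77, a keratin of the suprabasal epidermis and sweat ducts. Its day 0 arrays read 13.79, 13.85 and 13.74 and its day 2 arrays 8.16, 5.08 and 6.50. The day 0 arrays were within 0.11 of each other while the day 2 arrays spread over 3 log2 units, and the mean fell by 7.22 on the log2 scale (SE 1.00, adjusted p = 4.1e-06). Cyp2g1, a cytochrome P450, read 12.12, 9.80 and 11.69 at day 0 and 4.55, 4.35 and 4.15 at day 2, a 115-fold lower level. Skint10, of the family that includes the selecting element of epidermal gamma-delta T cells, fell 61.8-fold, from 10.24, 10.11 and 9.91 to 4.99, 3.44 and 3.98. The 15 largest changes in each direction were taken only from called genes whose day 2 and day 0 arrays did not overlap. Lipid genes (Far2, Scd3, Fa2h, Elovl3, Pnpla5, Elovl6) made up much of the rest of the 15 largest decreases. The others were Panx3, a pannexin channel (8.31 to 9.14 at day 0, 3.73 to 4.10 at day 2), Gprin2 (8.60 to 9.16, then 3.30 to 5.25), the alcohol dehydrogenase Adh6a (9.69 to 10.64, then 5.06 to 5.98), Dapl1 (11.29 to 11.72, then 6.83 to 7.07), Lce1m and the aryl hydrocarbon receptor target Cyp1a1 (8.77 to 9.65, then 4.43 to 5.37). A further probe set of Panx3 changed by only −0.45 and was not called.

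Chemokines listed as attracting neutrophils were among the most altered ligands. Of 7 tested, 3 were called higher and none lower in both genotypes, with a median change of 1.34 in D6-deficient and 1.36 in WT skin against 0.01 for all genes. Cxcl3 read 2.93, 2.90 and 3.89 at day 0 and 9.43, 10.06 and 8.72 at day 2 (at least 51.2-fold, fitted change 6.16 ± 0.53, adjusted p = 5.4e-09). Cxcl5 read 3.42, 3.13 and 3.25 at day 0 and 8.25, 6.72 and 7.38 at day 2 (at least 13.2-fold). Their day 0 means lay under 3.72, the lowest mean that the filter on dim probe sets kept, so folds are given against that level. In both, the lowest day 2 array stood more than 3 log2 units above the highest day 0 array. Cxcl1 was not called with its brightest probe set (7.31 to 7.90, then 8.70 to 9.17, change 1.34), whereas a further Cxcl1 probe set was called at 2.54. The platelet chemokines Pf4 (1.00) and Ppbp (1.33) stayed under 3-fold, each without overlap of the arrays. In WT skin Cxcl2 rose by 4.90, with day 2 arrays at 7.45, 10.45 and 6.84, and the genotype difference of the change was 2.50 (adjusted p = 0.13). The changes of Cxcl3 and Cxcl5 differed from those of WT by 4.17 (adjusted p = 0.0013) and 2.58 (adjusted p = 0.0032), with WT day 0 means under 3.72 as well. Without WT day 2 replicate 3 the Cxcl3 difference was 3.46, and without WT day 2 replicate 2 it was 5.02.

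Among 15 inflammatory CC chemokines, the class of ligand that D6 takes up, 6 were called higher and none lower (median 0.91). Ccl3 read 3.28, 3.50 and 3.87 at day 0 and 9.51, 9.82 and 9.25 at day 2. The lowest day 2 array was far above the highest day 0 array, and with a day 0 mean under the same level the fold is a lower bound (at least 55.8-fold, fitted change 5.98 ± 0.44, adjusted p = 5.9e-10). Ccl4, a close relative of Ccl3, went from 5.31, 5.52 and 5.67 to 9.18, 10.03 and 9.32 (16.1-fold). The monocyte chemokines Ccl12 (2.13), Ccl7 (2.03) and Ccl2 (1.87) rose, and their day 0 arrays varied more, as in Ccl12 with 7.77, 8.29 and 6.70 against 9.68, 9.75 and 9.74 at day 2. Ccl5 read 7.05 to 7.30 at day 0 and 8.54 to 9.60 at day 2 (1.90). The abundant Ccl8 (1.39), Ccl6 (0.77) and Ccl9 (0.62) passed the adjusted p but not 3-fold, and the arrays of Ccl9 overlapped. Against WT, where 2 of the 15 were called higher, the change was larger for Ccl3 (by 3.94, adjusted p = 0.00044, and by 4.75 without WT day 2 replicate 2), Ccl4 (by 3.35, adjusted p = 9.5e-06) and Ccl5 (by 1.86, adjusted p = 0.0022). It was smaller for Ccl20, the CCR6 ligand, which read 6.76 to 7.40 at day 0 and 6.11 to 7.17 at day 2 in D6-deficient skin (change −0.56, not called) while it rose by 2.81 in WT skin (difference −3.37, adjusted p = 0.00036). Ccl22 stood likewise at −0.58 against 1.10 in WT (difference −1.68, adjusted p = 0.006). Over all genes the genotype difference was called for 285 (1.6%), higher for 132 (0.743%) and lower for 153 (0.861%).

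Receptors for these ligands were examined next. Of 15 leukocyte chemokine receptors 6 were called higher and none lower, with a median of 1.29. Cxcr4, the receptor of CXCL12, had the largest change, from 6.56, 5.75 and 6.996 to 8.70, 9.26 and 9.14 (6.06-fold). Ccr1, a receptor of Ccl3, changed by 2.03. Cxcr2, which neutrophils use to sense Cxcl2, Cxcl3 and Cxcl5, read 6.01, 6.37 and 6.00 at day 0 and 8.17, 8.04 and 7.92 at day 2 (3.77-fold, adjusted p = 4.9e-08). All day 2 arrays of these 3 receptors were above the day 0 arrays. Cxcr6, found on T cells, rose by 1.82, close to the 1.72 of WT skin. Ccrl2, a receptor of the atypical kind that binds chemerin, rose by 1.68 and was the 1 receptor whose change differed from WT past the threshold (by 1.62, adjusted p = 0.0023). Ccr2 stood at 0.61 with its brightest probe set and at 2.06 with a further one that was called. Ccr6 (0.66) and Cxcr3 (1.41) were not called. Additional probe sets of Ccr1 and Cxcr6 changed by 1.43 and 1.41, under 3-fold.

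Of 26 cytokines tested, 8 were called higher and none lower (median 0.92). Il1b, the interleukin released by inflammasome activity, read 7.48, 7.51 and 7.59 at day 0 and 12.11, 12.05 and 11.52 at day 2 (20.7-fold, 4.37 ± 0.32, adjusted p = 5.3e-10). Its arrays agreed closely within each day. Il6 read 4.84, 4.40 and 4.52 at day 0 and 7.13, 7.10 and 6.95 at day 2 (5.56-fold). Osm (1.98), Il33 (1.87) and the receptor antagonist Il1rn (1.68) were called too. The IL-36 genes Il1f6, Il1f8 and Il1f9, epithelial members of the IL-1 family, rose by 2.66, 2.33 and 2.50. In WT skin these 3 rose by 5.32, 4.20 and 3.65, and the smaller change in D6-deficient skin passed the threshold for Il1f6 (−2.66, adjusted p = 0.0099) and Il1f8 (−1.88, adjusted p = 0.012). For Il1f6 the D6-deficient day 0 arrays (9.68, 9.02 and 9.74) were already above the WT day 0 arrays (8.43, 6.32 and 7.95; difference 1.92, adjusted p = 0.024), and the day 2 levels lay within 1.02 of each other over both genotypes. Il1a, at 1.00 against 3.04 in WT, and Il20, at −1.18 against 0.52, also differed. Neither Tnf (0.99) nor Il17a (0.86) was called, and Il17a read 6.35 in 1 day 2 array and 4.52 and 4.72 in the others. Ifnb1, a type I interferon gene on the list, read 3.72 to 3.80 at day 0 and 3.98 to 4.22 at day 2 (0.34, adjusted p = 0.11). Il18 (0.05), Csf1 (−0.54) and Tgfb1 (0.84, with a further probe set at −0.13) were not called.

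Receptors that sense microbes and damage showed 10 of 27 called higher and none lower (median 1.18). The C-type lectins Clec4e, known as Mincle, and Clec4d led the list. Clec4e read 4.57, 4.45 and 5.19 at day 0 and 10.53, 10.44 and 9.77 at day 2 (45.5-fold), and Clec4d 6.17, 5.10 and 6.37 at day 0 and 11.02, 11.60 and 10.85 at day 2 (38.9-fold). Trem3 and Trem1, activating receptors of myeloid cells, rose by 3.17 each, for example Trem1 from 5.20, 4.98 and 5.35 to 8.10, 9.01 and 7.92. The LPS co-receptor Cd14 (2.32) and the toll-like receptors Tlr1 (2.46), Tlr13 (2.39), Tlr2 (1.75) and Tlr8 (1.75) were also called. Tlr3 (0.09), Tlr9 (0.00), Il1r1 (−0.02) and the adaptor Myd88 (0.75) were not. The change exceeded that of WT for 8 of the 27 genes, among them Clec4d (by 2.65, adjusted p = 0.023) and Trem3 (by 2.40, adjusted p = 0.0012). The inflammasome adaptor Pycard had probe sets that disagreed (0.81 and −0.50).

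Over a range of functions, interferon-induced genes stood higher at day 2. Of 40 genes listed, 38 were tested, 1 was read only by a probe set it shares with another gene, and 1 had no tested probe set of its own. Of the 38, 22 were called higher and none lower, and in all 38 the 3 day 2 arrays lay above the 3 day 0 arrays, as they did for 25.6% of all genes. The median change was 1.90. Averaged over the list, the day 0 arrays stood at 8.12, 7.86 and 8.08 and the day 2 arrays at 9.91, 9.58 and 10.03. Ifit2, which binds RNA and restrains translation, read 6.69, 6.28 and 6.97 at day 0 and 9.58, 9.55 and 10.03 at day 2 (8.4-fold, 3.07 ± 0.21, adjusted p = 1.5e-10). Ifit1 read 8.01, 7.23 and 7.76 at day 0 and 10.50, 10.22 and 10.96 at day 2 (7.44-fold). Ifit3, with 3 copies of the response element core in the promoter shown above, went from 8.61, 7.81 and 8.53 to 11.20, 10.90 and 11.37 (7.14-fold). Day 2 replicate 2 was the lowest of its group in each of these, and day 0 replicate 2 was the lowest of the day 0 arrays.

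The rest of the interferon group covered effectors, sensors and regulators. Rsad2, the antiviral enzyme viperin, read 8.85, 8.23 and 9.06 at day 0 and 11.45, 11.29 and 11.60 at day 2 (6.64-fold). The oligoadenylate synthetase family was represented by Oasl1 (2.89), Oasl2 (2.52), Oas1a (2.45) and Oas3 (1.89), all called, and by Oas2 (1.14), which was not. Mx1, a GTPase that blocks viral replication, rose by 2.66 and Mx2 stood at 1.25. Among the regulators, Irf7, the factor that amplifies interferon production, rose by 2.88, from 8.13, 7.40 and 7.78 to 10.87, 10.04 and 11.03. Stat2 rose by 1.74, and its partner Irf9 read 8.32, 8.33 and 8.32 at day 0 and 9.50, 9.31 and 9.44 at day 2, a change of 1.10 that passed the adjusted p (7.5e-09) but not 3-fold. Usp18, which removes ISG15 and dampens receptor signalling, rose by 2.10. The T-cell chemokine Cxcl10 read 7.22, 7.14 and 7.14 at day 0 and 9.73, 9.75 and 10.12 at day 2 (6.49-fold), while Cxcl9 (1.39) and Cxcl11 (0.69) were not called. Cxcl11 was at 6.75 in day 2 replicate 3 and at 5.32 and 5.39 in the others. The abundant Ifi27l2a (0.97), Ifi35 (0.64) and Iigp1 (1.13) stayed under 3-fold.

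WT skin differed for this group. None of the 38 genes was called higher in WT at day 2, 1 was called lower (Ifi44, −1.60), and the median change was −0.33. The genotype difference of the change was called for 24 of the 38, all towards D6-deficient skin, among them Ifit1 (4.26, adjusted p = 1.5e-05), Ifi44 (4.05, adjusted p = 0.0013), Ifit2 (3.69, adjusted p = 1.2e-07) and Irf7 (3.37, adjusted p = 1.7e-06). At day 0 the genotypes did not differ past the threshold for any of these 4 genes (Ifit1 by −0.52, adjusted p = 0.55). Gm14446, a gene of the Ifit cluster that is named by the difference rule and is no member of the list, rose 17.5-fold, from 6.36, 5.59 and 6.39 to 10.41, 9.71 and 10.60, against −0.13 in WT. H28, from the same rule, rose by 2.62 against −1.23 in WT, where 1 day 2 array was at 3.19 and the others at 7.12 and 7.28.

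**Figure D2:**
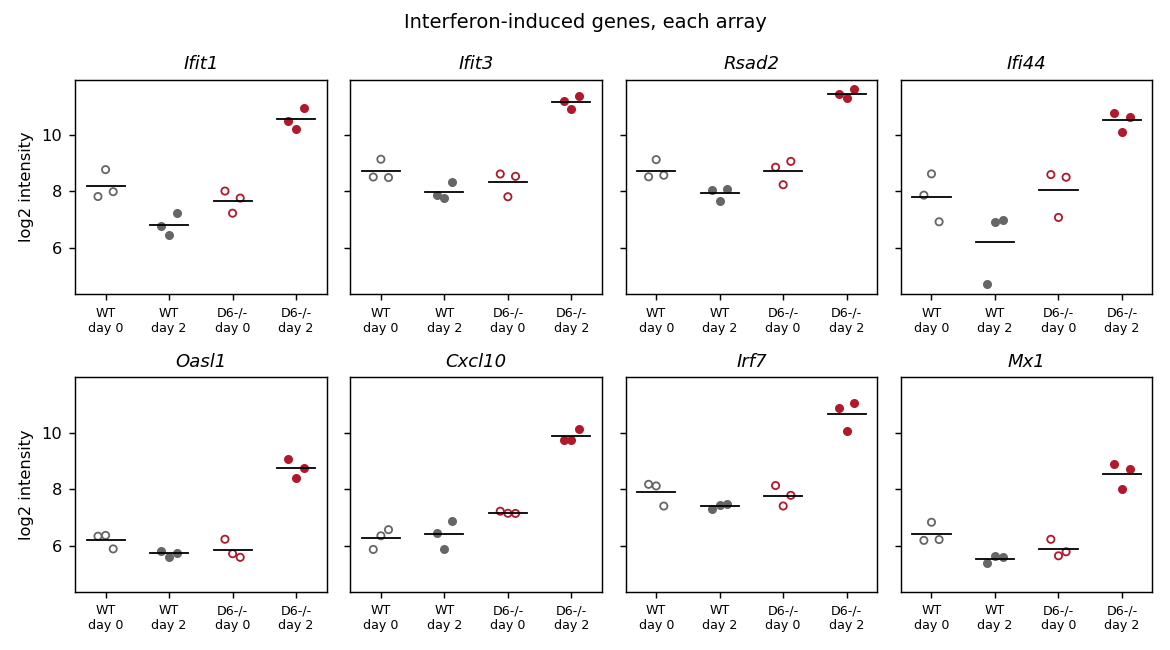
Points are the log2 intensities of single arrays for 8 interferon-induced genes, open for day 0 and filled for day 2, grey for WT and red for D6-deficient mice, with a bar at the mean of 3 arrays. In every panel the 3 D6-deficient day 2 arrays lie above the other 9, as in Ifit1 (10.22 to 10.96 at day 2 against 7.23 to 8.01 at day 0).

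Antimicrobial genes were called higher in 12 of 15 cases and lower in none (median 3.54, against 3.75 in WT). Defb3, a beta-defensin of inflamed epithelium, read 6.72, 5.84 and 8.36 at day 0 and 13.67, 12.07 and 12.17 at day 2 (50.6-fold). Saa3, an acute-phase serum amyloid, went from 9.43, 8.05 and 9.94 to 14.06, 13.64 and 13.71 (25.4-fold), and Slpi, a protease inhibitor of mucosal and skin surfaces, from 7.12, 7.01 and 7.01 to 10.78, 11.25 and 11.37 (17-fold). In Defb3 and Saa3 the day 0 arrays spread over nearly 2 log2 units or more. The calgranulins S100a8 and S100a9, which chelate metal ions, rose by 2.87 and 3.54. Their day 0 replicate 3 was high, with S100a8 at 12.85 against 11.07 and 10.42. Differences between the genotypes at day 0 passed the adjusted p for S100a8 (2.41, adjusted p = 0.035) and Defb3 (2.99, adjusted p = 0.0064). Lysozymes Lyz1 (0.19) and Lyz2 (0.75) and the lectin Reg3g (0.94) were not called.

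Camp and Ltf, proteins of the secondary granules of neutrophils, behaved differently from the epithelial members. Ltf, lactoferrin, read 3.79, 3.99 and 3.92 at day 0 and 6.23, 8.64 and 9.87 at day 2 (20.3-fold), and Camp, cathelicidin, 5.92, 5.89 and 5.33 at day 0 and 7.86, 9.52 and 10.76 at day 2 (12.7-fold). Both were lowest in day 2 replicate 1 and highest in day 2 replicate 3, and so was Ngp, the neutrophilic granule protein (4.68, 5.13 and 4.67, then 8.75, 11.09 and 11.87, 53.7-fold). Their change exceeded that of WT by 3.81 (Ltf, adjusted p = 0.027), 3.20 (Camp, adjusted p = 0.025) and 4.63 (Ngp, adjusted p = 0.015). Of 16 neutrophil markers 11 were called higher and none lower (median 3.13). Averaged over the markers, the day 0 arrays were at 6.55, 6.43 and 6.56 and the day 2 arrays at 8.67, 9.32 and 9.84. In WT skin these means were 6.54, 6.08 and 5.97, then 7.07, 7.80 and 7.06. Summed intensity ran from 3530 to 15800 at day 0 and from 55200 to 59100 at day 2 in D6-deficient skin. In WT it likewise ran from 1590 to 5450, then from 38900 to 53100. The sum gives most weight to the brightest markers, and the list holds S100a8 and S100a9. The chemoattractant receptors Fpr2 (7.42, 6.94 and 6.91, then 11.09, 11.45 and 11.21) and Fpr1 rose by 4.15 and 3.97, and Csf3r, the G-CSF receptor, by 3.39. The day 2 arrays of Fpr2 and Csf3r were closer together than those of Ngp, Ltf and Camp. The primary granule genes Mpo (0.38), Elane (0.56), Prtn3 (−0.73) and Ctsg (1.38) were not called. In WT 2 of the 16 markers were called higher, and the genotype difference was called for 8. The share of the change in Il1b, Clec4d, Trem1, Cxcr2 and the chemokines that comes with more neutrophils was not tested.

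Most keratins and cornified envelope proteins of activated epidermis were called higher. Of 12 tested, 10 were called higher and none lower (median 4.48, against 7.05 in WT). Sprr1b, a small proline-rich envelope protein, read 7.82, 7.28 and 7.95 at day 0 and 13.40, 13.90 and 13.73 at day 2 (63.8-fold, adjusted p = 1.1e-08). Sprr2i went from 5.64, 4.83 and 8.09 to 12.56, 10.96 and 11.66, and Sprr2f from 6.46, 5.79 and 8.10 to 12.82, 11.62 and 12.19. The wound keratins Krt16 (8.50, 7.78 and 9.49, then 13.61, 13.52 and 13.65), Krt6b (9.42, 8.21 and 11.75, then 14.42, 14.32 and 14.42) and Krt6a (9.39, 9.30 and 10.43, then 13.85, 13.87 and 13.85) ended within 0.13 of each other over the 3 day 2 arrays. Day 0 replicate 3 was the highest day 0 array of all these genes, and replicate 2 the lowest. The genotypes differed at day 0 for Krt6b (3.51, adjusted p = 0.024), Krt16 (2.48, adjusted p = 0.018) and Sprr1b (2.23, adjusted p = 0.036), with D6-deficient skin higher. The change was smaller than in WT past the threshold for Sprr2d (−2.78, adjusted p = 0.029) and Sprr2h (−2.16, adjusted p = 0.046). Krt17 (1.20) and Sprr3 (1.09) were not called.

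The genes of basal and differentiated epidermis moved both ways, with 8 of 36 called higher and 4 lower, and a median of 0.17 against 1.63 in WT. Their mean in the day 0 arrays was 10.72, 10.44 and 10.65 in D6-deficient and 10.18, 9.80 and 9.91 in WT skin. At day 2 it was 11.32, 10.82 and 11.06 in D6-deficient and 11.97, 11.74 and 11.86 in WT skin. The Lce3 genes, which belong to barrier repair, rose in all 4 tested cases. Lce3f read 8.59, 6.997 and 8.98 at day 0 and 13.68, 13.59 and 13.71 at day 2 (44.2-fold), Lce3c 7.95, 7.80 and 7.90 at day 0 and 13.36, 13.11 and 13.38 at day 2 (42.2-fold), and Lce3b rose by 4.87. Rptn, the envelope protein repetin, rose by 4.51, Casp14 by 2.70, Tgm3 by 2.68 and the desmocollin Dsc1 by 2.24. The Lce1 genes of normal barrier stood elsewhere. Lce1m read 12.39, 12.09 and 11.72 at day 0 and 8.03, 7.01 and 7.69 at day 2 (22.5-fold lower), and Lce1l 7.41, 7.19 and 7.14 at day 0 and 6.01, 4.97 and 4.59 at day 2 (4.16-fold lower), while 9 further Lce1 genes were not called, with changes from −1.01 to 0.55. In WT those 9 lay between 0.61 and 2.47. The genotype difference was called lower for 10 of the 36 genes, and 8 of these 10 were Lce1 genes, for example Lce1g (−1.92, adjusted p = 0.0037) and Lce1i (−1.72, adjusted p = 0.0015). Another of the 10 was Ivl, involucrin, which read 9.75 to 10.38 at day 0 and 9.88 to 10.43 at day 2 (0.09) against 2.05 in WT. Lce1 genes are near-identical copies, so a probe set may read more than 1 of them.

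Krt15, a keratin of basal cells and of hair follicle stem cells, read 12.94, 12.76 and 12.80 at day 0 and 9.19, 8.95 and 9.44 at day 2 (12.5-fold lower, adjusted p = 2.4e-09), and fell by 1.70 more than in WT (adjusted p = 0.015). Krt77, described above, fell by 7.22 against 2.85 in WT, where day 2 arrays read 11.46, 8.67 and 11.88, and the genotype difference missed the threshold (−4.36, adjusted p = 0.074). The basal keratins Krt5 (0.43) and Krt14 (0.86), the suprabasal Krt1 (0.65) and Krt10 (−0.33), and Lor, loricrin (−1.03), were not called. None of 9 keratinocyte markers and none of 10 fibroblast markers was called in either direction. Their arrays averaged 11.83 to 11.96 at day 0 and 12.28 to 12.43 at day 2 for keratinocytes, and 12.19 to 12.59 and 12.30 to 12.41 for fibroblasts.

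Stefins and clade B serpins, inhibitors of cysteine and serine proteases, were called higher for 5 of 11 and lower for 1. Stfa2l1 read 6.84, 6.66 and 7.71 at day 0 and 12.64, 12.75 and 12.34 at day 2 (45.4-fold). Serpinb3a read 5.60, 4.92 and 6.56 at day 0 and between 9.83 and 11.28 at day 2 (25.6-fold), and Serpinb12 went from 6.92, 5.90 and 5.62 to 10.15, 10.85 and 10.48 (20.3-fold). Stfa3 rose by 2.86 from day 0 arrays of 10.82, 10.13 and 12.10, which were above the WT day 0 arrays of 9.81, 7.72 and 7.97 (2.52, adjusted p = 0.0017), and both genotypes ended between 13.76 and 14.01. Serpinb7 was the 1 called lower, from 10.56, 10.55 and 10.38 to 8.92, 7.53 and 7.66 (5.49-fold), against 0.01 in WT with a difference that missed the threshold (−2.47, adjusted p = 0.055). Csta (1.11), Serpinb1a (0.72) and Serpinb5 (0.43) were not called, and 3 other Serpinb5 probe sets read −0.25, −0.53 and −0.47. Stefin A genes are a cluster of close copies, so single members are uncertain.

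**Figure D3:**
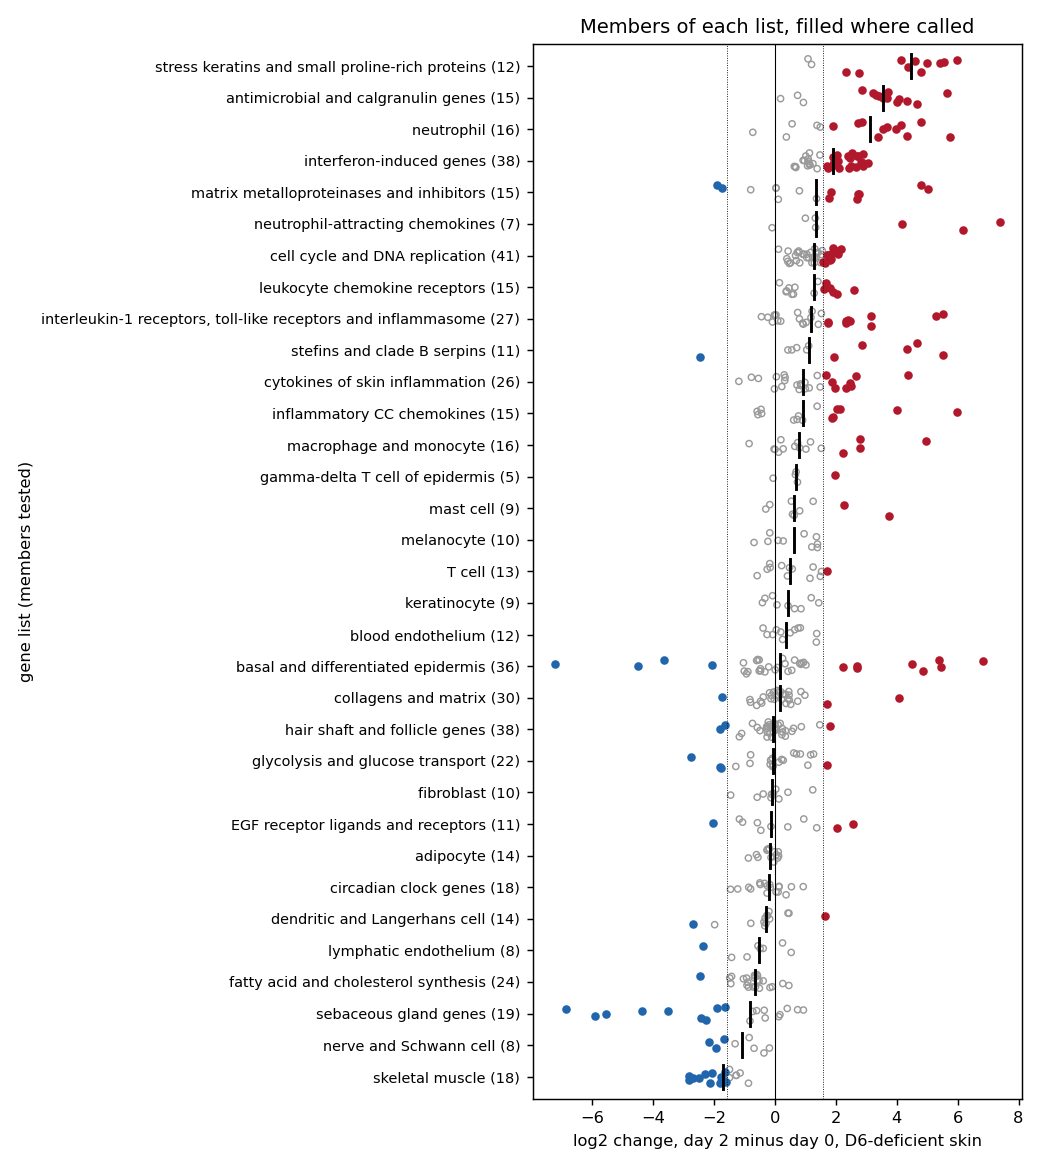
Each point is a tested member of a gene list (lists with 5 or more tested members), placed by its log2 change from day 0 to day 2 in D6-deficient skin, red where called higher, blue where called lower and open where not called, with a bar at the median of the list and dotted lines at 3-fold. Lists run from stress keratins at the top (median 4.48) to skeletal muscle at the bottom (median −1.71).

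About as many sebaceous gland genes were called lower as were not called. Of 19 tested 9 were called lower and none higher, with a median of −0.82 against −0.60 in WT. Far2, a fatty acyl-CoA reductase that makes the alcohols of wax esters, read 12.14, 11.67 and 11.88 at day 0 and 7.14, 4.06 and 3.95 at day 2 (115-fold lower, adjusted p = 2.7e-08). The desaturase Scd3 read 10.55, 11.45 and 10.78 at day 0 and 5.30, 4.91 and 4.81 at day 2 (60.5-fold lower). Elovl3, an elongase of very long fatty acids, read 11.67, 10.88 and 11.40 at day 0 and 7.99, 4.39 and 4.90 at day 2 (47.1-fold lower). Day 2 replicate 1 was the highest of its group in all 3 genes, by over 3 log2 units in Far2 and Elovl3. Without that array the change was −7.89 for Far2 and −6.67 for Elovl3, and without day 2 replicate 2 it was −4.87 for Elovl3. The elongase Elovl6 went from 12.76, 12.66 and 12.70 to 8.83, 7.85 and 8.31 (20.8-fold lower), although a further probe set changed by −1.40 and was not called. Cidea, a lipid droplet protein (−3.49), Krt79 of the sebaceous duct (−2.43), Elovl5 (−2.25), Gal3st1 (−1.91) and Acsbg1 (−1.63) complete the 9. The fall exceeded that of WT for Elovl3 (by −4.78, adjusted p = 0.002), Far2 (by −4.57, adjusted p = 0.0038), Krt79 (by −2.85, adjusted p = 0.004) and Elovl6 (by −2.63, adjusted p = 0.0002). The main skin desaturase Scd1 (−0.35), Pparg (−0.32) and Apoc1 (−0.60) were not called, and Fabp5, which keratinocytes also make, stood at 0.94.

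Other lipid enzymes outside that list followed a like course. Fa2h, which hydroxylates the fatty acids of sphingolipids, fell 56.5-fold, from 12.78, 12.76 and 12.57 to 8.02, 6.29 and 6.34, and by 3.26 more than in WT (adjusted p = 0.0029). Pnpla5, a lipid droplet lipase, read 9.73, 9.06 and 9.38 at day 0 and 5.41, 4.69 and 4.01 at day 2 (25.7-fold lower). The carboxylesterase Ces4a fell 15.4-fold and differed from WT by −3.01 (adjusted p = 0.0042). Genes of fatty acid and cholesterol synthesis moved less, with a median of −0.66 over 24 tested and 17 of 24 lower at the adjusted p alone. Hmgcs1 stood at −1.03. Fasn read 11.35, 12.09 and 10.89 at day 0 and 11.65, 9.91 and 11.24 at day 2, which overlap, and at day 0 both Fasn (−1.74, adjusted p = 0.024) and Acly (−1.31, adjusted p = 0.0039) were below their WT levels.

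Part of the proliferation genes were called higher in each genotype. Of 41 cell cycle and DNA replication genes 12 were called higher and none lower (median 1.29), against 18 and none in WT (median 1.52). At the adjusted p alone 35 were higher in D6-deficient skin. The list mean of the day 0 arrays was 7.57, 7.32 and 7.59 in D6-deficient and 7.05, 6.96 and 7.19 in WT skin. At day 2 it was 8.49, 8.79 and 8.90 in D6-deficient and 8.41, 8.63 and 8.23 in WT skin. Cenpa, a centromeric histone, read 7.61, 7.46 and 7.84 at day 0 and 9.48, 9.97 and 10.02 at day 2 (4.54-fold), although its other probe set stood at 0.15. Birc5, survivin, went from 7.68, 7.54 and 7.69 to 9.28, 9.88 and 9.99 (4.23-fold), Bub1, a spindle checkpoint kinase, from 6.31, 6.19 and 6.49 to 8.06, 8.57 and 8.51 (4.14-fold), and Cdk1 from 7.69, 7.33 and 7.86 to 9.05, 9.74 and 9.81 (3.75-fold). Day 2 replicate 1 was the lowest of its group in all 4. Without day 0 replicate 2 the count was 8, and without day 2 replicate 1 it was 16. Pcna (0.80), Mcm7 (0.68) and Mki67 (0.73) were not called. No genotype difference was called for a gene of this list by limma, which does not show that the changes are equal.

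Among 15 metalloproteinases and their inhibitors, which remodel tissue, 7 were called higher and 2 lower. Mmp13, a collagenase, read 4.39, 4.31 and 5.45 at day 0 and 9.11, 10.15 and 9.94 at day 2 (32.4-fold, adjusted p = 9.5e-09). Mmp8, the neutrophil collagenase, read 4.37, 4.32 and 4.76 at day 0 and 8.33, 9.75 and 9.79 at day 2 (27.9-fold), and Mmp9, the gelatinase also stored by neutrophils, 6.87, 7.18 and 6.92 at day 0 and 9.23, 9.94 and 10.03 at day 2 (6.71-fold). These last genes are on the neutrophil marker list too, and their change exceeded that of WT by 3.24 (adjusted p = 0.00085) and 2.15 (adjusted p = 0.0016). Mmp3 rose by 2.75, Mmp10 by 1.86 and Mmp11 by 1.79. The inhibitor Timp1 read 7.58, 7.34 and 7.57 at day 0 and 11.16, 9.44 and 10.02 at day 2 (6.53-fold), close to WT (2.71 against 2.86). Timp4 (−1.90) and Timp3 (−1.74) were called lower, but their other probe sets were not (−0.84 for Timp4 and −0.24, −0.86 and −1.55 for Timp3). Mmp2 (0.04) and Mmp14 (0.11, with a further probe set at −0.08) had overlapping arrays. Timp2 was not called, with probe sets from −0.79 to 0.60.

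Of 30 matrix genes of the dermis 2 were called higher and 1 lower, against 2.2% and 2.08% of all genes. Tnc, tenascin-C of wound matrix, read 7.11, 6.50 and 7.33 at day 0 and 11.33, 10.66 and 11.13 at day 2 (16.7-fold, against a change of 4.61 in WT on the log2 scale). Col12a1 rose by 1.70. Fmod, fibromodulin, fell by 1.75, while 5 further probe sets of it changed by −0.85 to −1.26. The main fibrillar collagens Col3a1 (0.03) and Col1a2 (−0.11, with a further probe set at 0.05) and the proteoglycan Dcn (−0.13) had overlapping arrays. Ligands of the EGF receptor were divided. Areg rose 5.91-fold, from 5.14, 5.11 and 5.08 to 7.45, 7.84 and 7.74, and Hbegf 4.08-fold, from 7.50, 7.16 and 7.51 to 9.29, 9.48 and 9.48. Btc, betacellulin, fell from 9.14, 8.94 and 8.97 to 6.94, 6.91 and 7.09 (4.1-fold). Ereg, epiregulin, read 9.44, 8.78 and 9.16 at day 0 and 9.29, 8.84 and 8.87 at day 2, which overlap, while it rose by 2.47 in WT from a lower day 0 level (difference −2.60, adjusted p = 0.0026). Egfr itself stood at −1.06 with its brightest probe set and at 0.81, 0.19 and 0.54 with others, and Erbb3 at −0.46 and, with a further probe set, 0.26.

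Skeletal muscle genes, which in back skin come from the thin muscle sheet under the fat, were mostly called lower. Of 18 tested 12 were called lower and none higher (median −1.71), and all 18 had day 2 arrays below the day 0 arrays, as did 27.6% of all genes. Pvalb, the calcium buffer of fast fibres, read 13.41, 13.22 and 13.59 at day 0 and 10.96, 10.25 and 10.53 at day 2 (7.11-fold lower), and Ttn, titin, 12.60, 12.19 and 12.68 at day 0 and 9.99, 9.19 and 9.81 at day 2 (7.1-fold lower). The summed intensity of the list ran from 172000 to 200000 at day 0 and from 58900 to 62000 at day 2. In WT 7 of the 18 were called lower (median −1.19), and no member differed between the genotypes past the threshold. Glycolytic genes are set beside this because several are muscle isoforms. Of 22 tested, Pfkm (12.30, 12.26 and 12.65, then 10.47, 10.64 and 10.67), the muscle enolase Eno3 (13.46 to 13.70, then 11.72 to 11.84) and Ldhb (11.13, 10.97 and 11.32, then 8.46, 8.44 and 8.29) were called lower, and the transporter Slc2a3 was called higher at 1.72, with a further probe set at 0.72. Aldoa (−0.80), Ldha (−0.05) and Tpi1 (−0.08, with a further probe set at 0.03) were not called. What part of the lower glycolytic values goes with the muscle genes was not tested.

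Markers of the other cell types were called to differing extents, against 2.2% of all genes called higher and 2.08% lower. Of 9 mast cell markers 2 were called higher. Cd207, langerin of epidermal Langerhans cells, read 9.12, 9.35 and 8.94 at day 0 and 7.34, 5.36 and 6.65 at day 2 (6.42-fold lower, adjusted p = 8.4e-06), against 0.06 in WT (difference −2.75, adjusted p = 0.0034). Epcam, shared by Langerhans cells and follicle keratinocytes, stood at −0.79 against 1.09 in WT. The MHC class II genes H2-Aa, H2-Ab1 and H2-Eb1 stood at −0.19, −0.24 and −0.29 and were not called, so 1 of 14 genes on the dendritic and Langerhans list was called lower and 1 higher (Siglech, 1.64). Of 16 macrophage and monocyte markers 4 were called higher, Chi3l3 (5.11, 3.99 and 4.55, then 9.18, 9.25 and 10.12), Ms4a7 (2.80), Arg1 (2.79) and Cd68 (2.23), while Mrc1 (0.00), Cd163 (−0.03) and Csf1r (0.20) were not. Mast cell proteases stayed under 3-fold, but Fcer1a, the high-affinity IgE receptor chain that basophils carry as well, read 3.75, 3.98 and 3.91 at day 0 and 7.64, 8.17 and 7.08 at day 2 (13.5-fold), and the histamine enzyme Hdc rose by 2.28. Of 13 T-cell markers Cd5 was called (1.71), and of 5 genes of the gamma-delta T-cell list Fcer1g, which other leukocytes share, was called (1.98). No B-cell, adipocyte or blood-endothelial marker was called. Among 8 lymphatic markers Reln was called lower (9.46, 9.12 and 9.32, then 6.85, 6.96 and 6.99), while Lyve1 (−0.38), Prox1 (−0.48) and Pdpn (0.25) were not. Of 8 nerve and Schwann cell markers 3 were called lower and none higher, among them the myelin genes Mbp (−1.92) and Prx (−1.68). Alas2, of erythroid haem synthesis, was called higher at 1.68.

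The 2 genotypes shared part of their response. Of the 391 genes called higher in D6-deficient skin, 157 (40.2%) were also called higher in WT, which is 50% of the 314 WT genes. Of the 369 called lower, 121 (32.8%) were also called lower in WT, 79.1% of the 153 WT genes. A pair of genes was called in opposite directions, Ifi44 (2.45 against −1.60) and Calcb (−1.67 against 2.27). Calcb, a calcitonin gene-related peptide of sensory nerves, read 8.91, 8.31 and 8.73 at day 0 and 8.40, 5.76 and 6.77 at day 2, so that the highest day 2 array lay within the day 0 range, and it lost the call without day 2 replicate 2 (−1.06), day 2 replicate 3 (−1.57) or day 0 replicate 1 (−1.54). Besides the lipid genes, Gprin2 (−4.68 against −0.82), Slurp1, a secreted regulator of keratinocytes (−2.52 against 1.07, difference −3.59, adjusted p = 0.0014), and Fcgbp (−3.19 against 0.12, difference −3.31, adjusted p = 0.0016) had the largest differences towards lower values. Day 2 replicate 1 was the highest D6-deficient day 2 array in all 4 of these genes.

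**Figure D4:**
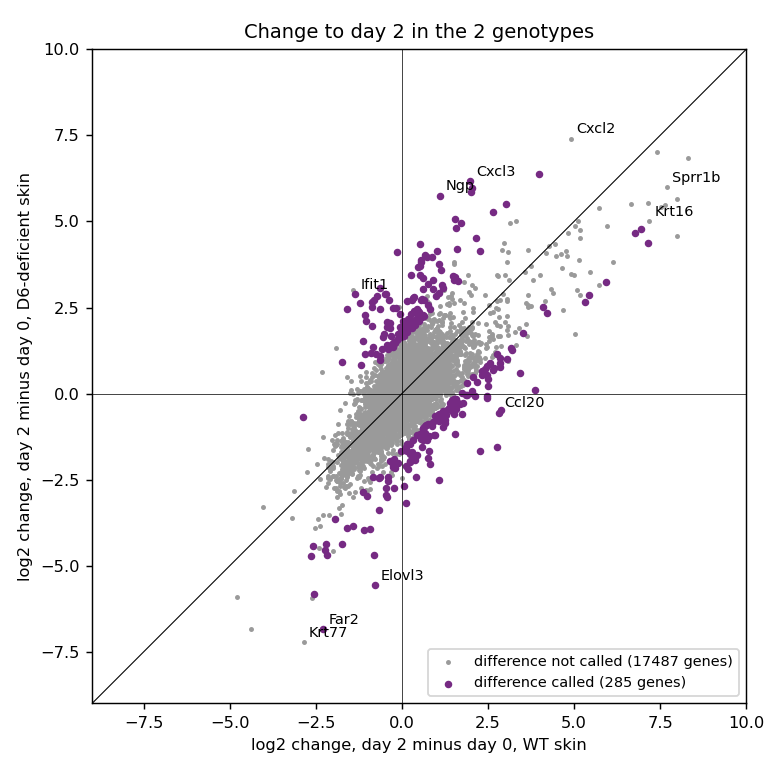
Each point is a gene, with its log2 change from day 0 to day 2 in WT skin on the horizontal axis and in D6-deficient skin on the vertical axis, purple where the genotype difference of the change was called (285 genes), and a diagonal line at equal change. Ngp, Cxcl3 and Ifit1 lie above the line, Far2, Elovl3 and Ccl20 below it.

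The arrays of the other days place day 2 within the course of the response. All days share the day 0 controls, and the genes were picked at day 2. Of the 391 genes called higher, 215 had their highest D6-deficient mean at day 2, 139 at day 4, 25 at day 1 and 12 at day 6, and their median change was 1.04 at day 1, 2.22 at day 2, 1.82 at day 4 and 0.78 at day 6. Of the 369 called lower, 118 had their lowest mean at day 2, 102 at day 4, 92 at day 6 and 57 at day 1, and the median change stayed between −1.76 and −2.005 over all 4 days. Cxcl2 stood at 4.59 ± 0.55 (SD, n = 3) at day 0, 6.17 ± 1.23 at day 1, 11.99 ± 0.36 at day 2, 10.48 ± 0.49 at day 4 and 5.22 ± 0.51 at day 6. Ifit1 stood at 7.67 ± 0.40 at day 0, 8.32 ± 0.47 at day 1, 10.56 ± 0.37 at day 2, 8.82 ± 0.46 at day 4 and 7.07 ± 0.73 at day 6. Krt77 was at 12.34 ± 0.57 at day 1, 6.58 ± 1.54 at day 2 and 12.18 ± 1.68 at day 6, while Far2 was already at 6.77 ± 0.93 at day 1 and still at 8.58 ± 1.30 at day 6. The SD at day 2 was larger than at day 0 for Krt77, Far2 and Ngp and smaller for Cxcl2 and Krt6b.

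**Figure D5:**
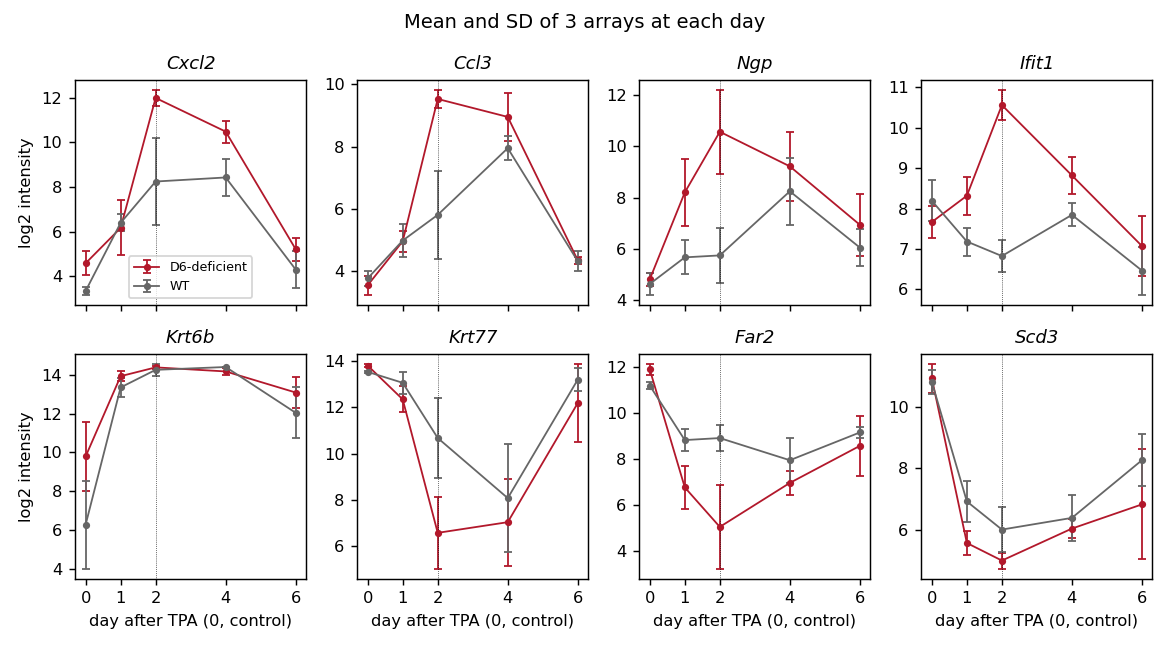
Each panel shows the mean log2 intensity with SD bars of 3 arrays for 1 gene at day 0 and days 1, 2, 4 and 6 after TPA, in red for D6-deficient and in grey for WT skin, with a dotted line at day 2. Cxcl2, Ccl3, Ngp and Ifit1 have their highest D6-deficient mean at day 2, and Krt77, Far2 and Scd3 their lowest.

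At the 3-fold threshold itself the calls are arbitrary. Cks2, a subunit of cyclin-dependent kinases (9.50, 9.24 and 9.57, then 10.74, 11.16 and 11.16), and Samhd1, a nucleotide hydrolase that restricts viruses (9.43, 9.43 and 9.61, then 10.90, 10.996 and 11.33), lay just inside at 1.59. The complement receptor C5ar1 (1.58) and Apol7a (−1.58) lay just outside. A further C5ar1 probe set was called at 2.39, and 4 further Samhd1 probe sets were not called, with changes from −0.10 to 1.13.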

How the data were processed

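RNA of back skin was hybridized to Affymetrix Mouse430_2 arrays, 1 array a mouse. The authors summarised the scans with RMA in GeneSpring GX, and the values deposited are linear intensities after normalization; the submitters' processing notes name RMA without a version. A second deposited text is a sample sheet and was not used. Here log2 of each intensity was taken, 64 control probe sets were set aside, and, as in the methods, the dimmest 20% of the remaining 45037 probe sets by their mean intensity (9008) were dropped. The 36029 others were fitted with limma 3.58.1 in R 4.3.3 as 10 group means on 30 arrays (20 residual degrees of freedom), with Benjamini-Hochberg adjustment over all of them. The WT change and the difference of the changes are contrasts of the same fit.

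Each gene is read by its brightest tested probe set with a single symbol (17772 genes), and further probe sets that disagree are given beside the genes named. Of the probe sets tested, 3421 had no symbol and 685 several, and none of these was named. Named genes include the 15 largest called changes in each direction, taken only from genes whose day 2 and day 0 arrays did not overlap. The others are the largest genotype differences, the leading members of each list and the members nearest the threshold. Members and lists were chosen with earlier results of these data known. Promoters came from the RefSeq table and were matched by gene identifier, or by symbol where the identifier found none. Samples were grouped by the labels, and the p-values set a change against the spread between mice within groups. That spread is pooled over all 10 groups and moderated across probe sets, so it is not that of the compared groups alone. Alternatives covered the low-value filter, centring, quantile normalization, array weights, thresholds, the methods' t-test, averaged probe sets, the hybridization control sets, the replicate block and leaving out each array. The fit was tested on simulated data. Figures were drawn with matplotlib 3.10.9 in Python 3.11.15. Histology, cell counts and PCR of the study were not analysed here, and a few genes are not reported here.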

Additional observations from a re-analysis of the deposited data

Results flagged for a closer look

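The following genes had a change from day 0 to day 2 that differed between D6-deficient and WT skin in the limma test of the difference itself (adjusted p under 0.05 and more than 3-fold). Values are the D6-deficient change minus the WT change on the log2 scale. The difference was called for 0.743% of all genes towards higher and 0.861% towards lower values, and all of these comparisons rest on 3 arrays a group.

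Among interferon-induced genes and their neighbours the differences were 4.26 for Ifit1, 4.26 for Gm14446, 4.05 for Ifi44, 3.85 for H28, 3.69 for Ifit2, 3.37 for Irf7, 3.36 for Oasl1 and 1.61 for Ifi27l2a. The last of these changed by less than 3-fold in D6-deficient skin itself. Chemokines with a larger change in D6-deficient skin were Cxcl3 (4.17), Ccl3 (3.94), Ccl4 (3.35) and Cxcl5 (2.58). Genes found in neutrophils and other myeloid cells, or stored in their granules, differed by 4.63 for Ngp, 3.81 for Ltf, 3.24 for Mmp8, 2.15 for Mmp9, 2.65 for Clec4d, 2.48 for Clec4e, 2.40 for Trem3, 2.01 for Trem1, 1.71 for C5ar1 and 1.86 for Padi4. Hpx (3.84) and Spink12 (2.39) also rose more.

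Differences towards lower values were found for the lipid genes Elovl3 (−4.78), Far2 (−4.57), Fa2h (−3.26), Elovl6 (−2.63) and Pnpla5 (−2.51) and for the esterase Ces4a (−3.01). Genes of epidermis and its inhibitors were Slurp1 (−3.59), Lce1l (−2.88), Il1f6 (−2.66), Ereg (−2.60), Stfa3 (−2.57), Dapl1 (−2.30), Serpinb3a (−2.10), Lce1i (−1.72) and Krt15 (−1.70). The remaining ones were Calcb (−3.94), Gprin2 (−3.87), Fcgbp (−3.31), Panx3 (−2.06) and Cyp1a1 (−1.82). For Il1f6, Stfa3 and Ereg the D6-deficient day 0 arrays stood above the WT day 0 arrays.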

How the results depend on the processing

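Against the main counts of 1177 called probe sets in D6-deficient skin (613 higher, 564 lower), 686 in WT skin and 400 for the genotype difference (200 in each direction), the choice of threshold moved the counts most. With no fold threshold the counts were 13716 (6307 higher, 7409 lower) in D6-deficient skin, 9392 in WT and 1945 (1001 and 944) for the difference. A 2-fold threshold gave 3439 (1686 and 1753), 2185 and 1062 (530 and 532). A test against 3-fold itself (treat in limma) gave 226 (150 and 76), 131 and 9, and for the difference these were 9 higher and 0 lower, with 76 and 34 at an unadjusted p under 0.05, against 200 lower by the ordinary limma test. Averaging the probe sets of a gene gave 664 (365 and 299), 396 and 266, of which 130 higher, and 1 quoted probe set a gene, chosen after seeing the data, gave 760 (391 and 369). For these 2, fewer features are counted by construction. The methods' t-test at an unadjusted p under 0.05 gave 1160 in D6-deficient skin and 468 for the difference, and after Benjamini-Hochberg adjustment 1117 and, for the lower differences, 133. With only the 17 arrays of the first hybridization control set, an alternative added after seeing the data, the difference was called for 49 (37 and 12), and the cause was not tested. That set holds 1 day 0 and 1 day 2 array of D6-deficient mice, which are assumed to vary like the other groups. Leaving out 1 array at a time gave 1146 to 1254 (557 to 650 higher, 550 to 647 lower) in D6-deficient skin, 633 to 760 in WT and 305 to 452 for the difference (170 to 218 higher, 122 to 255 lower, the lowest without D6-deficient day 2 replicate 2). The D6 gene passed the threshold of its test with the mean of its probe sets (−0.72, adjusted p = 1.13e-05).

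Replicate numbers did not pair the samples, since the residuals of same-numbered arrays correlated at −0.07, −0.03 and 0.06. The replicate block gave 1178 calls (613 and 565) in D6-deficient skin, all 1177 among them, 686 in WT and 391 (198 and 193) for the difference, and it changed no named call.

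Of 152 named changes, 94 were called and could lose the call. Of these 94, 37 lost it under treat, 6 with probe sets averaged and 2 with the adjusted t-test (Ltf and Calcb). With the second hybridization control set alone 4 lost it, and without single arrays 1 to 4. The first set alone leaves 1 day 0 and 1 day 2 array of D6-deficient mice, so its count for the changes is not given. Named calls lost without 1 array were those of Krt75, Samhd1, Cks2, Calcb (up to −1.06, without day 2 replicate 2), Slc2a3 (1.48, without day 2 replicate 2), Timp3 (−1.42, without day 0 replicate 2), Padi4 and Col12a1 (1.56 and 1.497, without day 0 replicate 3) and Lhx2 (−1.54, without day 2 replicate 1). Of 16 named differences, 15 lost the call with the first set alone, 9 with the second alone, 13 with the adjusted t-test and 14 under treat. Ngp lost it without D6-deficient day 2 replicate 3 (3.98) or WT day 2 replicate 1 (4.17), and H28 without WT day 0 replicate 2 (3.32).

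Leaving out 1 array moved the change of 12 of 94 named called genes by more than 1.5-fold. Without day 2 replicate 1 these were Elovl3 (−6.67), Far2 (−7.89), Krt77 (−8.00), Ngp (6.66), Ltf (5.36) and Calcb (−2.39), without day 2 replicate 2 Elovl3 (−4.87) and Krt77 (−6.47), and without day 2 replicate 3 Ngp (5.10) and Ltf (3.54). Without day 0 replicate 2 they were Sprr2i (4.86), Lce3f (4.87) and Cyp2g1 (−7.55), and without day 0 replicate 3 Sprr2i (6.49), 2610528A11Rik (7.73), Defb3 (6.36) and Sprr2f (6.08). The same held for 9 of 16 named differences (Ngp, Elovl3, Far2, Calcb, Ifi44, H28, Cxcl3, Ccl3 and Hpx), for example Elovl3 (−5.89 and −4.09 without D6-deficient day 2 replicate 1 or 2), H28 (2.52 without WT day 2 replicate 1), Ifi44 (3.31 without the same array) and Hpx (4.95 and 2.98 without WT day 2 replicate 2 or 3).

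No named called gene reversed. Values near 0 changed sign: Ldha with each array centred on its median (0.0099), Il18 with quantile normalization (−0.0091), array weights (−0.0070) or the first set (−0.14), Mmp2 with quantile normalization (−0.017) or without single arrays (−0.0081 to 0.10), and Col3a1 with quantile normalization (−0.031), weights (−0.0046), the first set (−0.039) or without single arrays (−0.088 to 0.11). Likewise Mmp14 (−0.10 in the second set, −0.036 to 0.28 without single arrays), Ereg (0.090 in the second set, −0.31 to 0.027 without single arrays), Fasn (−0.87 to 0.0024 without single arrays), Serpinb5 (−0.21) and Nr1d2 (0.31) with averaged probe sets. Centring moved the median change by 0.065. With 3 arrays a group their number limits the precision, and probe sets under the low-value threshold were not tested.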

Other observations

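A few gene groups outside those described above are given with the shares over all genes at day 2 in D6-deficient skin. Of all genes 2.2% were called higher and 2.08% lower. Of 38 hair shaft and follicle genes tested, 1 was called higher and 2 lower, with a median change of −0.07. Lhx2, a transcription factor of hair follicle progenitors, fell by 1.82 and Krt75, a companion layer keratin, by 1.63, while Padi4 rose by 1.82. Padi4 is also found in neutrophils. None of 18 circadian clock genes was called by limma, and the nearest to the threshold was Arntl at −1.46. At the adjusted p alone 2 were higher and 5 lower, against 18.6% and 20.6% of all genes.

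Of 10 melanocyte markers, none was called by limma with all arrays, 2 were higher and 1 lower at the adjusted p alone, and 4 were called higher without D6-deficient day 2 replicate 1. Averaged over these markers the day 0 arrays lay between 6.13 and 6.20 and the day 2 arrays at 6.14, 7.16 and 6.89.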
